A study of Mus musculus with 18 samples.

Results

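The comparison described here is that of liver DNA methylation between 2 pools of male mouse offspring, those of dams given bisphenol A (BPA) in pregnancy and those of control dams. Its members are the CpGs of chromosomes 1 to 19 with at least 20 reads in each liver pool, 1438448 of the 1705876 CpGs listed for liver (84.3%) and of 5339994 rows listed for 3 tissues. All mice were C57BL/6 and 3 weeks old. The BPA group came from 4 litters of dams gavaged daily with 5 mg/kg BPA in corn oil from 1 to 20 days post-conception (dpc). The control group came from 3 litters of dams that received corn oil alone over the same days. Each group had 3 liver samples, with no record here of which litter each came from. In the deposited table the 3 are merged into 1 pool per group. The tests therefore compare the reads of 2 pools and not animals or litters, no spread between animals could be computed, and a pooled difference can come from 1 animal. The tables number the pools 0 and 1. Pool 0 was read as control only because a label names the control group first, so every direction given here turns if the numbering is the reverse.

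BPA is a monomer of polycarbonate plastics that binds oestrogen receptors weakly. Methylation of cytosine at CpGs is laid down during development and is copied when cells divide. Promoters in CpG islands are mostly free of it, the rest of the genome is mostly methylated, and enhancers and genes used by a cell type lose it in that cell type. Liver is made up mainly of hepatocytes, which make plasma proteins and handle fat, sugar, bile acids and foreign compounds, with endothelial, Kupffer, stellate, bile duct and blood cells beside them. Reduced representation bisulfite sequencing (RRBS) cuts DNA with MspI, so that fragments rich in CpGs are read, and converts unmethylated cytosines so that the methylation level of a CpG is the share of its reads that stayed unconverted.

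CpGs no more than 100 bp apart were joined into units, and calls were made with Fisher's exact test, for CpGs or units with an adjusted p (Benjamini-Hochberg) under 0.05 whose levels lay 5 or more points apart. The sequences that follow show where called CpGs lay in annotated starts and in a microRNA. Of 11419 windows running from 250 bases before to 50 bases after a gene start in the RefSeq table (GRCm38.p6), 2 held a called CpG. These windows were chosen after their values were seen. The first is that of Tmem267, a gene for a transmembrane protein, on the plus strand of chr13:119487836-119488135, and 7 of its 13 member CpGs were called lower in the BPA pool. The second is that of Gm40881, a predicted gene, on the plus strand of chr12:20311963-20312262, where 1 of 19 member CpGs was called higher. Capitals mark the called CpGs, and each window is written 5′ to 3′.
Tmem267: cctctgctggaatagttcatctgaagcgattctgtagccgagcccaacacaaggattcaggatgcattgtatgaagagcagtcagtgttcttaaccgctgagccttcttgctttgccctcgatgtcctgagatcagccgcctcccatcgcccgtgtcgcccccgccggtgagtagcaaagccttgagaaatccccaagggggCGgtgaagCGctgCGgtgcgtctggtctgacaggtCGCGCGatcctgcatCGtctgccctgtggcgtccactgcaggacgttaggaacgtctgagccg
Gm40881: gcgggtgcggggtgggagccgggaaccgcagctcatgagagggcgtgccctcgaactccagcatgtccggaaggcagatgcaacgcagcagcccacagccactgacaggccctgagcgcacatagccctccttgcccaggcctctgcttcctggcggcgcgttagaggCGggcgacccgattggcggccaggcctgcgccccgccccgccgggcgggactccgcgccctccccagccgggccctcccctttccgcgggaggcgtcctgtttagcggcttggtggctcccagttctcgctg

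Of 96 mature microRNAs that held a member CpG, 2 held a called one, and both come from Mir455, which lies inside Col27a1, the gene of a fibrillar collagen. The mature forms, from RefSeq, lie on the plus strand at chr4:63256867-63256888 (miR-455-5p) and chr4:63256904-63256924 (miR-455-3p). Capitals again mark the called CpG, which begins at base 21 of the first and at base 9 of the second.
miR-455-5p: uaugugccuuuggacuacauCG
miR-455-3p: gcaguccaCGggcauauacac

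Member CpGs had a median depth of 165 reads (control) and 152 reads (BPA), with 10th to 90th percentiles of 41 to 362 and 40 to 321. Summed over members this was 304013432 control and 275009366 BPA read counts. The CpGs fell into 320711 units with a median of 2 CpGs, of which 111051 held 1 CpG and 149284 held 3 or more. The mean level was 49.7% in both pools, and the mean difference, BPA minus control, was -0.0508 points over CpGs. Weighted by reads the sign was the opposite, with a control level of 50.9% and a BPA level of 51.4%. The pools were within 5 points of each other at 81.6% of CpGs and 20 points or more apart at 0.577%. An unadjusted p under 0.05 was found at 63697 CpGs (4.43%), 31567 higher and 32130 lower in the BPA pool. The squared difference between the pools was on average 1.26 times what counting error gives, over 821357 CpGs. All intervals here are 95% intervals for counting error alone, and reads copied by PCR without molecular identifiers are not independent molecules.

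Of the member CpGs 428 were called (0.0298%), 302 of them higher (0.0210%) and 126 lower (0.00876%) in the BPA pool. When p-values were scaled to the excess of 1.26 over counting error, 179 were called, 133 higher and 46 lower. Higher calls made up 70.6% of the 428, although unadjusted p-values were evenly split. The higher CpGs went from a median level of 42.7% in the control pool to 63.0% in the BPA pool, and the lower ones from 63.3% to 43.0%. CpGs with a mean level of 20 to 80% made up 21.4% of members, 90.4% of higher and 68.3% of lower calls. The calls lay in 295 units, 217 with higher and 78 with lower calls, and no unit held calls in both directions. Of 233 such units with 3 or more CpGs, 102 had every CpG on the same side, 81 higher and 21 lower. CpGs on the same reads are not independent, so this does not count as many separate observations. The units were also chosen for holding a call, and the share over all units of 3 or more CpGs is not given.

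**Figure D1:**
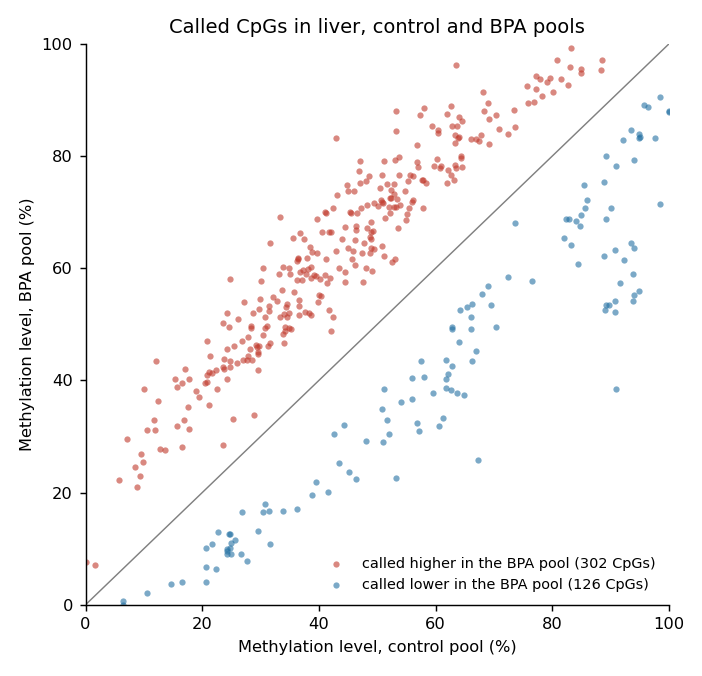
Methylation level (%) of the 428 called CpGs in the control pool (x axis) and the BPA pool (y axis), 1 point per CpG, with the line of equal levels. The 302 higher CpGs (red) form a band between low and high levels, and the 126 lower CpGs (blue) hold a group near 90% in the control pool.

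Over units, 33 were called (0.0103%), 32 higher (0.00998%) and 1 lower (0.000312%). The higher units stood between 7.85% and 76.8% in the control pool, with a median of 48.3%, and were 11.5 to 33.4 points higher in the BPA pool, with a median of 20.8. Of the 33 units 24 were single CpGs and 7 held 3 or more, 19 lay in gene bodies, 3 within 5 kb of a gene and 11 farther away. Of member CpGs, counted singly and not by unit, 70.0%, 9.41% and 20.6% lay in these places. The table of genes used gives no exons, introns or untranslated regions. In this test a unit counts its mean reads per CpG, so that a read spanning a short unit is counted about once. In units longer than a read the mean counts only part of the reads, and 89.0% of units were within 200 bp. Summing the reads over the CpGs of a unit instead gave 2366 units (1430 higher, 936 lower), and taking only the deepest CpG gave 165 (140 higher, 25 lower), so the near absence of lower units depends on that choice. The 33 units were called under both, but for the 24 single CpGs among them these choices count the same reads. With CpGs joined within 200 bp in place of 100 bp, 6 units were called (5 higher, 1 lower), so most unit calls end when wider stretches are averaged.

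**Figure D2:**
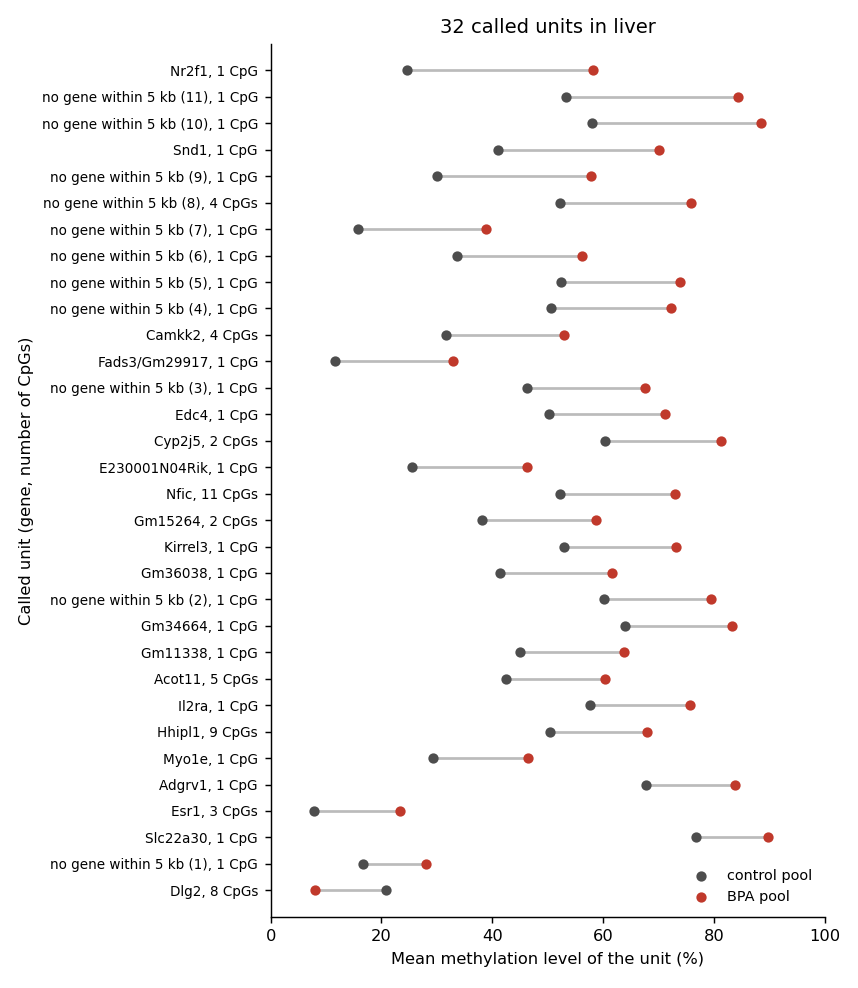
Mean methylation level (%) of 32 of the 33 called units in the control pool (grey) and the BPA pool (red), named by gene and number of CpGs and ordered by the difference. The BPA pool is to the right of the control pool in 31 of these units, and to its left only at Dlg2.

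Among receptors, Esr1, the oestrogen receptor alpha, held the called unit with the smallest p in a gene. Its 3 CpGs, at chr10:4621215-4621251 in the gene body, stood at 9.34, 8.50 and 5.69% in the control pool and at 23.0, 24.5 and 22.3% in the BPA pool. The unit went from 7.85% to 23.3%, a difference of 15.4 points (interval 10.6 to 20.5), with an adjusted p of 8.72e-05 in Fisher's exact test. A neighbouring CpG of Esr1 at position 4621380 was also called, at 47.4% and 62.7%. Over all 219 member CpGs in 56 units of Esr1 the control level was 78.9% and the BPA level 78.1%, so these CpGs did not stand for the gene. Nr2f1, an orphan nuclear receptor also called COUP-TFI, had a called single CpG at position 78192404 of chromosome 13, at 24.7% of 97 reads and 58.1% of 86 reads.

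Among transcription factors, Nfic, of the nuclear factor I family, had a called unit of 11 CpGs in its gene body at chr10:81420349-81420503. Every CpG was higher in the BPA pool, by 14.8 to 28.8 points, and 7 were called. The lowest CpG in the control pool, at position 81420443, stood at 29.9% of 515 reads and at 54.5% of 409 reads. The unit went from 52.2% to 72.9% (difference 20.7 points, interval 12.6 to 28.2).

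Genes of signalling and metabolism held further higher units. Camkk2, a kinase that activates AMP-activated protein kinase, had 4 CpGs at chr5:122770868-122770902, at 28.3, 24.6, 41.6 and 32.2% in the control pool and at 49.8, 49.5, 57.7 and 54.9% in the BPA pool. A second unit of Camkk2, starting at position 122770408, held another called CpG at position 122770434, at 10.0% of 100 reads and 38.5% of 117 reads. Acot11, a fatty acyl-CoA thioesterase, had 4 called CpGs that went from 27.0 to 38.8% in the control pool to 43.6 to 62.9% in the BPA pool, and another CpG at 94.5% and 89.5%. Cyp2j5, a cytochrome P450 that acts on arachidonic acid, had 2 called CpGs, at 56.2% and 76.4% and at 64.6% and 86.2%. A single CpG in Fads3, a member of the fatty acid desaturase family that overlaps Gm29917 here, went from 11.7% of 290 reads to 32.9% of 255 reads. Slc22a30, of the organic anion transporter family, went from 76.8% to 89.7% at 1 CpG. Slc2a5, the fructose transporter GLUT5, had 5 called CpGs of 6, but its unit (47.6% and 63.0%) was not called, with an adjusted p of 0.117 in Fisher's exact test.

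Hhipl1, related to hedgehog-interacting protein, had 9 CpGs at chr12:108311856-108312020, each higher by 12.4 to 26.3 points and 7 of them called, and the unit went from 50.5% to 68.0%. A unit of 4 CpGs at chr2:34147500-34147524, over 5 kb from any gene, went from 52.3% to 75.8%. Single CpGs were called in Myo1e, an unconventional myosin (29.3% and 46.4%), Kirrel3, an adhesion molecule (52.9% and 73.2%), Snd1, an RNA-binding nuclease domain protein (41.1% and 70.0%), and Edc4, which enhances mRNA decapping (50.2% and 71.1%). Others lay in Adgrv1, an adhesion G protein-coupled receptor (67.8% and 83.8%), Il2ra, the interleukin 2 receptor alpha chain (57.7% and 75.7%), Gm36038 (41.3% and 61.6%) and Gm11338 (63.7% in the BPA pool, 18.7 points higher). Called units within 5 kb of a gene lay 267 bp from Gm34664 (63.9% and 83.2%), and near E230001N04Rik (25.5% and 46.2%) and Gm15264 (38.2% and 58.7%). The called unit with the smallest p of all was a single CpG over 5 kb from any gene, at position 103954124 of chromosome 8, at 57.8% of 244 BPA reads, 27.8 points above the level of 293 control reads (Fisher's exact test, adjusted p = 1.91e-05).

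Some genes held many called CpGs in units that were not called, and these were chosen after their values were seen. Klhdc7a, a kelch domain gene, had the most higher calls, 8 of 34 CpGs in a unit at chr4:139965337-139966128. Its called CpGs stood at 15.6 to 36.2% in the control pool and at 31.9 to 61.3% in the BPA pool, and 32 of the 34 were on the higher side. The unit around Mir455 in Col27a1, at chr4:63256793-63257263, had all 18 CpGs on the higher side and 6 called. The CpG within miR-455-5p went from 49.5% of 545 reads to 71.7% of 435 reads, and that within miR-455-3p from 62.1% of 551 reads to 77.5% of 431 reads. The smallest p over all CpGs lay in Gm31901, a long noncoding RNA gene, at position 95683172 of chromosome 16, which went from 33.3% to 69.1% (difference 35.8 points, interval 29.3 to 41.8). Rras2, a small GTPase, had the CpG with the widest higher difference, 43.0% of 86 reads and 83.3% of 78 reads. Dpf3, a subunit of chromatin remodelling complexes, Rnf220, a ubiquitin ligase, and Aatk, a kinase, had 4 higher calls each.

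Of the 126 lower calls 74 lay in units of 10 or more CpGs, as did 68 of the 302 higher ones. Dlg2, a scaffold protein of synapses, held the only called lower unit, 8 CpGs at chr7:92180650-92180800 in the gene body. These stood at 10.5 to 24.9% in the control pool and at 2.06 to 12.7% in the BPA pool, all 8 lower, and the unit went from 20.8% to 7.99% (difference -12.8 points, interval -18.1 to -7.75; Fisher's exact test, adjusted p = 0.0209). The start of Tmem267 shown above lies in a unit of 17 CpGs that it shares with the noncoding gene 3110070M22Rik. All 17 were on the lower side, at 20.9 to 31.6% in the control pool and at 7.89 to 15.9% in the BPA pool, and the unit's adjusted p was 0.272 in Fisher's exact test. Over the 13 CpGs of the printed window the mean level was 25.2% and 11.3%. A second Tmem267 unit, at chr13:119488749-119489108, had 9 further lower calls, with up to 3442 reads at a CpG in the control pool, against a median of 165 over all members.

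Lrrc8d, a subunit of volume-regulated anion channels, had 24 CpGs at chr5:105731892-105732260, all on the lower side and 7 called, with the widest difference at position 105732149 (57.2% and 30.9%). Zmiz1, a transcriptional coactivator, had 5 called of 31 CpGs, 30 of them on the lower side, in a unit at 33.3% and 21.2%. Ido2, an enzyme of tryptophan breakdown, had 3 called of 7, among them position 24554622 of chromosome 8 at 43.4% of 632 reads and 25.2% of 524 reads. Urad, an enzyme of uric acid breakdown, had 2, led by 60.6% and 31.8%. Single lower calls lay in Bdh1, an enzyme of ketone body metabolism that overlaps Gm15743 here (55.9% and 40.5%), and in Dnmt3a, a DNA methyltransferase that sets new methylation and overlaps Gm31623 here (21.6% and 10.9%). The widest lower difference was at Knop1, at 90.9% of 33 reads and 38.5% of 39 reads. Rn18s-rs5, a gene model related to 18S ribosomal RNA, had 15 lower and 2 higher calls. Its unit at 39846122 on chromosome 17 had 14 of the lower ones, with control levels of 56.8 to 94.9% and BPA levels of 32.5 to 61.4%, and as ribosomal RNA genes are repeated, reads there cannot be assigned to 1 copy. Over all 70 CpGs that unit stood at 19.2% and 20.5%, and the units starting at 39843014, 39845078 and 39847194 were also on the higher side in the mean (by 1.64, 2.28 and 2.09 points), so the lower calls did not stand for the locus.

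**Figure D3:**
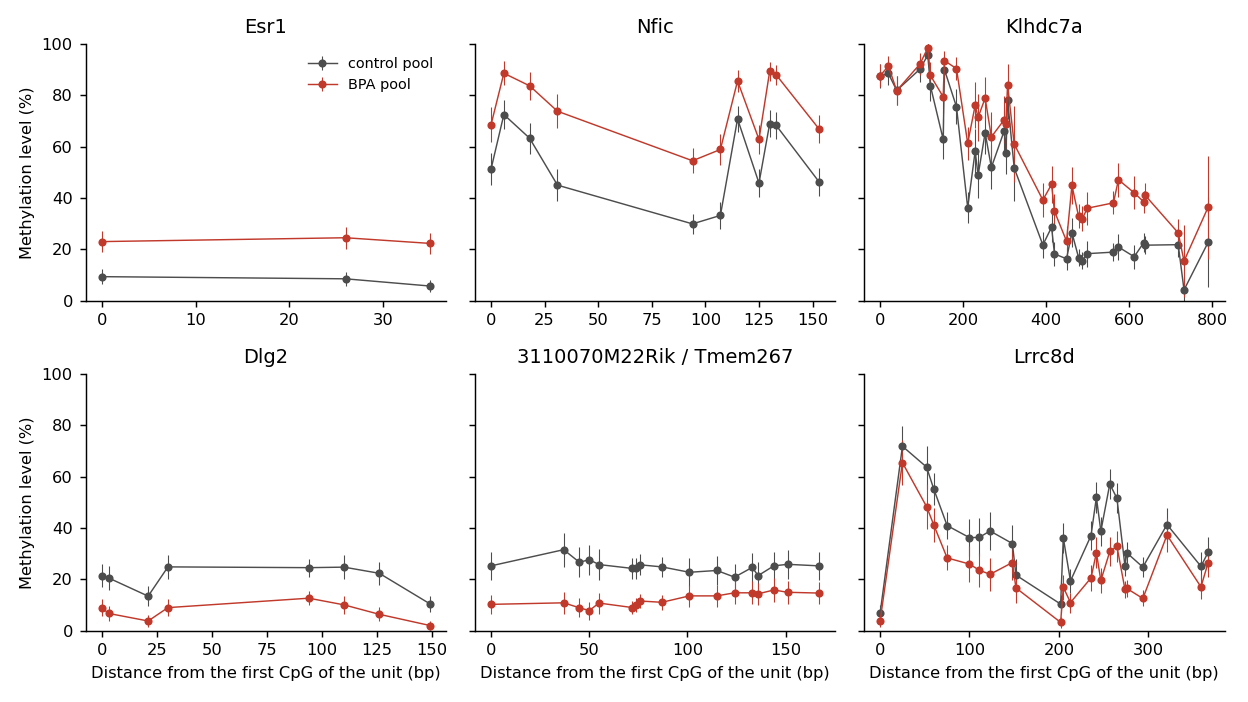
Methylation level (%) of each CpG against its distance (bp) from the first CpG of the unit, for 6 units, in the control pool (grey) and the BPA pool (red). Bars are 95% intervals for counting error (normal approximation). In the top row the BPA pool lies above the control pool at every Esr1 and Nfic CpG and at 32 of 34 Klhdc7a CpGs, and in the bottom row it lies below at every CpG.

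The calls were not spread evenly over levels, units or positions. At mean levels of 20 to 40%, 64 CpGs were called higher and 18 lower, at 40 to 60% 118 and 35, and at 60 to 80% 91 and 33, whereas at 5 to 20% there were 7 higher and 20 lower. The shares called in these classes were 0.159%, 0.216%, 0.0670% and 0.0395%, against 0.0298% of all members. In units of 1 CpG 32 were higher and 2 lower, and in units of 20 or more CpGs 19 were higher and 52 lower. The shares called there were 0.0306% and 0.0185%, the first of them near that of all members. Within 250 bp of a gene start 3 were higher and 11 lower (0.00705% called), where 198700 CpGs had a mean level of 4.62% in the control pool. From 1 to 5 kb away 56 were higher and 10 lower (0.0428% called), and from 5 to 50 kb 165 and 41 (0.0389%). Chromosome 4 held 50 higher and 5 lower calls (0.0526% called) and chromosome 12 held 36 and 5 (0.0612%). Many of these lay close together. Among the higher calls of chromosome 4, 8 lay in Klhdc7a, 6 in Col27a1, 5 in Slc2a5 and 4 each in Acot11 and Rnf220. On chromosome 12, 7 lay in Hhipl1 and 4 in Dpf3, and in each of these genes the calls lay in 1 unit. Chromosome 13 had 5 higher and 17 lower (0.0354%), and chromosome 17 had 14 and 20 (0.0509%). Of these lower calls, 16 on chromosome 13 lay in Tmem267 and 15 on chromosome 17 in Rn18s-rs5, and 7 of the 11 lower calls within 250 bp of a start were those of the Tmem267 window. These 2 loci also held 24 of the 52 lower calls in units of 20 or more CpGs. Gene bodies held 68.2% of higher and 81.7% of lower calls, against 70.0% of all members. These shares carry no test, since neighbouring CpGs share reads. Calls also followed depth: 0.159% of CpGs with 400 or more reads in the smaller pool were called, and 0.000829% of those with 20 to 49 reads.

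**Figure D4:**
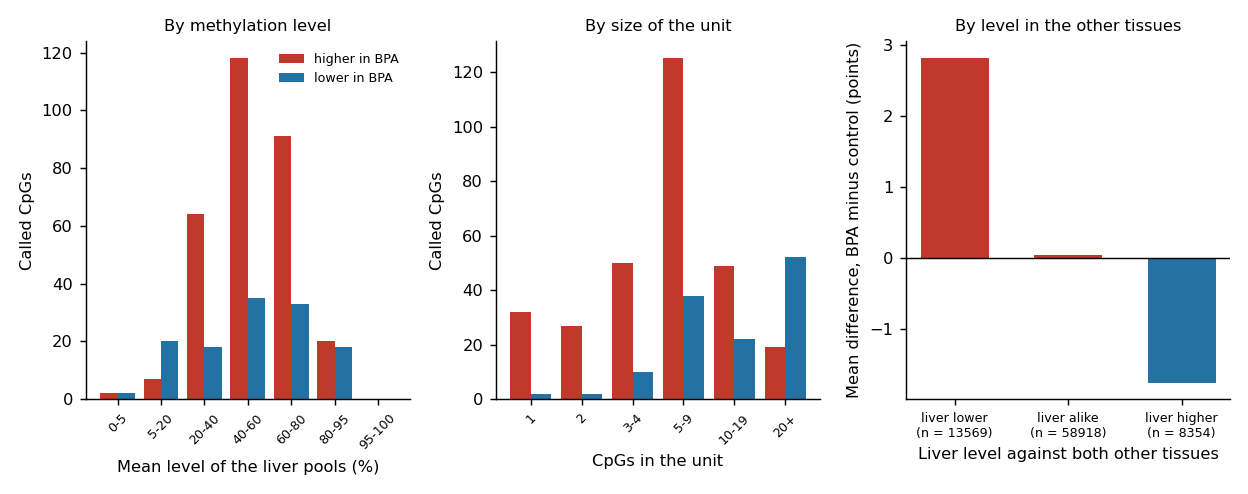
Number of CpGs called higher (red) and lower (blue) in the BPA pool by mean level of the liver pools (left) and by number of CpGs in the unit (middle), and mean difference between the liver pools in points by how liver compares with both other tissues (right). Higher calls outnumber lower ones except at 5 to 20% and in units of 20 or more CpGs, with equal numbers at 0 to 5% and none at 95 to 100%, and the 13569 CpGs that are lower in liver have a mean difference of 2.82 points.

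Units around those with called CpGs were compared by distance. Units over 100 and up to 500 bp from a unit with higher calls had a median difference of 1.41 points, 127 of 190 higher. Up to 2000 bp away the next band had a median of 0.728, 104 of 170 higher, and up to 10000 bp the band beyond had -0.00299, 428 of 863 higher. Over all units the median was -0.0583 and 48.4% were higher. Next to units with lower calls, up to 500 bp away, the median was -0.615, 19 of 56 higher. In the next bands it was 0.0488 (38 of 74 higher) and -0.374 (124 of 287 higher), with no steady fading over distance.

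Gonadal adipose tissue and hypothalamus, with 3 samples per group joined into pools in the same way, served to place these CpGs. CpGs called higher in BPA liver had median control levels of 75.7% in adipose tissue and 80.7% in hypothalamus, against 42.7% in liver, and 219 of 302 had a liver level, averaged over its pools, below both. At 106 of the 302 both other control pools stood over 80%. Shares over all members are not given for these counts or for those of the lower calls below, so the counts alone do not set the calls apart. In the control liver pool 39.8% of members stood at 80% or more, and 490491 of 1438448 members had a mean liver level under 5%. CpGs were also compared within bands of mean liver level. At 20 to 40% the median control level of called higher CpGs and of members was 53.5% and 36.8% in adipose tissue and 52.2% and 43.4% in hypothalamus. At 40 to 60% it was 70.3% and 54.2% in adipose tissue and 82.0% and 62.5% in hypothalamus, and at 60 to 80% 82.6% and 74.2%, and 88.6% and 80%. Of the 126 CpGs called lower, 45 had a liver level above both other tissues and 46 below both, 22 were under 5% in both, and 22 were over 80% in both. Among those low in the other tissues, Lrrc8d stood at 35.0% in control liver and at 1.14% and 2.16% in control adipose tissue and hypothalamus, Zmiz1 at 33.3% against 1.12% and 0.787%, and Ido2 at 25.6% against 0.815% and 0.550%. Nfic, Acot11 and Hhipl1 showed the opposite, at 42.4 to 52.2% in control liver and 87.5 to 94.5% in the control pools of the other tissues. Camkk2 lay between the other tissues, at 31.6% in control liver, 2.26% in adipose tissue and 46.0% in hypothalamus.

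**Figure D5:**
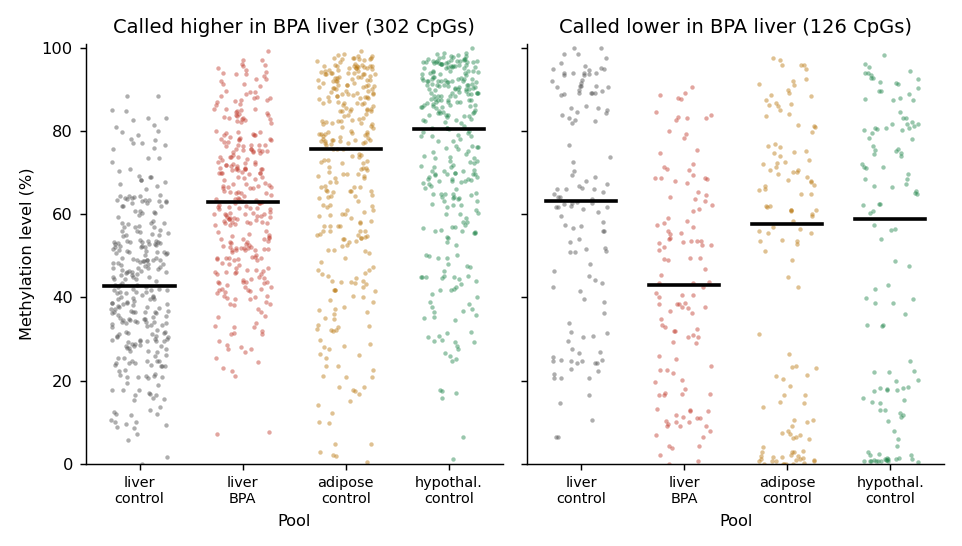
Methylation level (%) of the 302 CpGs called higher (left) and the 126 called lower (right) in BPA liver, in both liver pools and in the control pools of adipose tissue and hypothalamus, 1 point per CpG (also those with under 20 reads in the other tissue), with a bar at the median. On the left the median of the BPA liver pool (63.0%) lies between that of the control liver pool (42.7%) and those of the other tissues.

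Wider classes of CpGs, called or not, were set apart by how liver compares with both other tissues. At 13569 CpGs the liver level, averaged over its pools, was at least 30 points below that of both other tissues. There the control mean was 27.2% and the mean difference 2.82 points. Of these CpGs 69.6% were higher, and 62 were called higher and 1 lower (0.464% called). At 8354 CpGs at least 30 points above both, the mean was 70.9% and 69.2%. Of these CpGs 61.2% were lower, and 1 was called higher and 15 lower (0.192% called). At 58918 CpGs at 20 to 80% in liver and within 10 points of both other tissues, the mean difference was 0.0440 points. There 31 were called higher and 26 lower (0.0967% called). Over all 1275720 members measured in the 3 tissues, 44.5% were higher and 49.3% lower, and 0.0333% were called. In the mean, the BPA pool lay nearer to the other tissues than the control pool did in both of the outer classes. The classes were formed from the mean of both liver pools, so that neither pool was favoured, but they were set up after earlier results of these data and carry no test.

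The CpGs called in liver were compared between the pools of the other tissues. Those called higher in liver had a median BPA-minus-control difference of 0.295 points in adipose tissue, 161 higher and 141 lower, and of 0.0663 in hypothalamus, 153 higher and 148 lower. Those called lower in liver had medians of -0.520 in adipose tissue, 51 higher and 73 lower, and -1.49 in hypothalamus, 49 higher and 75 lower. Of the CpGs called lower, 16 lie in Tmem267 and 15 in Rn18s-rs5, so they are not as many separate observations. Shares over all members in the other tissues are not given for these counts, so they do not show that the calls are shared between tissues. The called higher units had medians of 0.919 in adipose tissue (20 of 32 higher) and 0.502 in hypothalamus (17 of 31 higher). The test of the difference itself, a Wald test of log odds ratios between liver and each other tissue, called 23 of 592388 pairs of unit and tissue (0.00388%). Of the 33 units called in liver, 4 differed from adipose tissue and 0 from hypothalamus, where 32 of the 33 were measured. At unadjusted p under 0.05 the counts among the higher units were 23 of 32 and 21 of 31, against 20444 of all 592388 pairs. The units were chosen for their liver difference and the test uses the same liver reads. Such unadjusted counts are therefore high by construction and do not show a difference between tissues. Esr1 and Nfic were not among the 4 units that differed from adipose tissue, so for them a difference between tissues was not shown. At Esr1 the pools of adipose tissue stood at 24.6% and 27.5% and those of hypothalamus at 70.6% and 69.6%. Tmem267 was low in the BPA pool of hypothalamus as well, at 19.7% and 7.20% over the unit at its start, and stood at 16.3% and 15.5% in adipose tissue.

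Gene lists placed the calls in pathways, counted over gene bodies and 5 kb on either side. Steroid and nuclear receptors with their cofactors had member CpGs in 39 genes and 4779 CpGs, of which 7 were called, all higher (0.146%, against 0.0298% over all members). Of these 7, 4 are neighbouring CpGs of Esr1, which was on the list with earlier results known. Esr2, the oestrogen receptor beta, stood at 35.8% and 36.9% with no call, and Gper1, a membrane oestrogen receptor, at 88.9% in both pools. Hepatocyte transcription factors (24 genes, 2603 CpGs) had 0 calls, and by gene 13 were higher and 11 lower in the BPA pool. Hnf4a, a nuclear receptor that directs hepatocyte genes, stood at 45.9% and 51.4% over its 49 CpGs, while the median gene difference of the list was 0.0239 points. Fatty acid synthesis and storage (34 genes), cholesterol and bile acid metabolism (30), xenobiotic metabolism (27), imprinted genes (42) and clock genes (20) had 0 calls as well. Fasn, the fatty acid synthase, stood at 45.5% and 49.3%, Cyp7a1, the rate-limiting enzyme of bile acid synthesis, at 53.6% and 59.1%, and H19, an imprinted noncoding RNA, at 59.8% and 60.7%. These 3 were higher, but each list went both ways by gene. In the order given, the lists had 23 higher and 11 lower, 21 and 9, 16 and 11, 20 and 22, and 11 and 9. Fatty acid oxidation and ketogenesis had 1 lower call, at Bdh1, DNA methylation machinery 1 lower, at Dnmt3a, and the insulin, glucose and growth hormone list 1 higher, at Insr, the insulin receptor (50.9% and 64.0%). Against the 0.0298% of all members, counts of 0 or 1 in lists of this size are near the background and say nothing particular of a list.

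Marker genes of cell types were used to check the tissue label and to compare the pools. Of 15 hepatocyte marker genes measured in all tissues 11 were lowest in control liver, with a median gene level of 42.3% against 82.5% in adipose tissue and 75.1% in hypothalamus, the order that a liver sample would give. Between the liver pools, these markers (94 units of 19 genes) had no call. Their median unit difference was 1.92 points, and 72.3% of units were higher in the BPA pool, against 48.4% of all units. The wider class of CpGs at least 30 points lower in liver than in both other tissues showed a similar shift. Counted by CpG, 69.6% of that class were higher, with a median difference of 2.58 points, so the shift is not particular to hepatocyte markers. By gene 13 were higher and 6 lower, and over all genes 53.2% were higher. Fga, a fibrinogen chain, stood at 40.9% and 47.0%, Ttr, transthyretin, at 42.1% and 47.8%, and Ahsg, fetuin A, at 29.8% and 34.7%, while Arg1, the arginase of the urea cycle, stood at 71.0% and 66.3%. Markers of Kupffer cells and leukocytes had a median unit difference of -0.813 points (39.5% of 86 units higher), endothelial markers -0.449 (42.2% of 185) and erythroid markers -0.477 (37.0% of 46). By gene, in the same order, 8 were higher and 9 lower, 5 and 9, and 3 and 5. The median unit differences for markers of bile duct cells (0.0602), stellate cells (-0.168), neurons (-0.193) and adipocytes (0.0923) lay closer to 0. The only call in a marker list was at Rbfox3, a neuronal splicing factor (36.6% and 51.7%). In a bulk pool, fewer hepatocytes and a shift within hepatocytes cannot be told apart, and the part of either in the calls was not tested.

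The pools also differed at CpGs that are nearly free of methylation. For 143472 member CpGs that stood under 1% in every adipose and hypothalamus pool, the methylated share was 0.754% of 31753696 control reads (exact binomial interval 0.751 to 0.757) and 0.576% of 27931923 BPA reads (0.573 to 0.579). The difference, BPA minus control, was -0.178 points, in the direction opposite to most calls, and 1 of these CpGs was called. Incomplete conversion and low methylation cannot be told apart in this measure.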

How the data were processed

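DNA methylation was measured by RRBS of 100 ng of DNA per sample from 18 samples, of which 6 were liver. Reads were aligned with BSMAP to GRCm38 (mm10), per the submitters' processing notes; its version and any removal of PCR copies are not given in the sources used here. The authors deposited 1 table per tissue with pooled values. Per the file headers, each row of 2 bp has a read count per pool. A methylation fraction was deposited beside it, the share of reads that were methylated. The deposited p-value of Fisher's exact test was used only as a check: the recomputed p matched it within 0.01 on a log10 scale at 99.7% of CpGs. The authors' credible difference served only as an alternative.

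Methylated reads were recovered as count times fraction. Units chain CpGs at most 100 bp apart, and Fisher's exact test (two-sided) was run on each unit's mean reads per CpG and on each CpG, with Benjamini-Hochberg adjustment over all units or CpGs. Calls need an adjusted p under 0.05 and 5 points. Tissues were compared by a Wald test of log odds ratios with 0.5 added to each cell. Newcombe intervals (95%) are given for differences. Genes came from a RefSeq table of GRCm38.p6 (47038 genes, no strand or exons), and 426 of 431 entries of 18 gene lists matched by symbol. Windows at gene starts cover all of these chromosomes but 18. The code was tested on simulated data and used Python 3.11.15, numpy 2.4.6, pandas 2.3.3, scipy 1.17.1, numba 0.67.0 and matplotlib 3.10.9. Genes were named by a rule: called units of 3 or more CpGs that all differ in 1 direction (up to 10 each way), the 6 genes with the most called units each way, up to 2 genes with a called unit per list, and Esr1, Nfic, Slc2a5, Acot11 and Camkk2. All others were chosen after their values were seen. The members and lists were chosen with earlier results of these data known. Alternatives changed the read minimum, the joining distance, how reads of a unit are counted, the minimum difference, the scale of the p-values, the deepest CpGs and the size of units. Some results at single genes are not reported here, and 1 called unit is left out of the plot of units.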

Additional observations from a re-analysis of the deposited data

Results flagged for a closer look

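At 4 units called higher in the BPA pool of liver, the difference between the pools differed from that in adipose tissue, by a Wald test on log odds ratios with p adjusted over 592388 pairs of unit and tissue. All are single CpGs, and in each the adipose pools differ in the opposite direction. The units were chosen for their liver difference, and the test uses the same liver reads. It is passed most easily where the adipose difference is opposite, so that direction is in part selected for. The CpG at position 50370937 of chromosome 14, over 5 kb from any gene, stood at 50.6% (control) and 72.2% (BPA) in liver, and at 71.1% and 58.2% in adipose tissue (Wald test of binomial read counts, adjusted p = 0.000788). The CpG at position 59891901 of chromosome 6, also far from genes, stood at 60.2% and 79.5% in liver and at 72.6% and 62.8% in adipose tissue (Wald test of binomial read counts, adjusted p = 0.0141). The CpG at position 37609039 of chromosome 12 stood at 46.3% and 67.6% in liver and at 95.8% and 90.8% in adipose tissue (Wald test of binomial read counts, adjusted p = 0.0327). The CpG in Kirrel3, at position 34646974 of chromosome 9, stood at 52.9% and 73.2% in liver and at 66.9% and 61.2% in adipose tissue (Wald test of binomial read counts, adjusted p = 0.0395).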

How the results depend on the processing

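No paired analysis was possible because each liver group is deposited as 1 pool, and for the same reason neither leaving out a replicate nor a replicate block was run. The count of 33 called units (32 higher, 1 lower) became 66 (60 and 6) with CpGs joined within 50 bp and 6 (5 higher) within 200 bp. It became 2366 (1430 and 936) with reads summed, 165 (140 and 25) with only the deepest CpG, and 7 (6 higher) with only units of 3 or more CpGs. When p-values were scaled to the observed excess over counting error, which was 0.774 for units, it was 156 (126 and 30), and without a minimum difference 2 units were lower. The 33 units stayed called under each of these except joining within 200 bp (6 stayed) and the size limit (7). Much of this was fixed in advance and is no measure of robustness. The 24 single CpGs keep the same reads however reads are counted and when CpGs are joined within 50 bp. A scale of 0.774 makes p-values smaller, and dropping the minimum difference cannot end a call. The 7 that passed the size limit are all the called units of 3 or more CpGs. With at least 10 reads 32 stayed, with at least 50 reads all 33, and without the deepest 0.1% of CpGs 31. Of called CpGs, 466 were higher without a minimum difference, and 179 were called with scaled p-values (133 and 46). Of the member CpGs, 12897 had a credible difference of at least 5 points in the authors' deposited table, 7124 higher and 5773 lower. The credible difference is another measure than the adjusted p used for calls here. The mean difference turned from -0.0508 to 0.0707 points over units and to 0.516 weighted by reads. The difference at nearly unmethylated CpGs was -0.191 points with a limit of 2%. Joined within 200 bp, the unit near E230001N04Rik turned to -0.0708 points, and by its deepest CpG that of Aatk turned to -13.0 points (Fisher's exact test, adjusted p = 0.294). Beyond fewer or more units tested, the cause was not tested. Few CpGs under 50 reads could be called: 2 of 241348.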

Other observations

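The other pairs of unit and tissue that differed were not called in liver, in part because differences under 5 points are not called. Of all 23 pairs, 5 were units of Rn18s-rs5, which is repeated in the genome and deeply covered. The smallest p was at a unit of 16 CpGs shared by LOC115490388 and Gm19064 on chromosome 6, which stood at 21.7% and 24.3% in the control and BPA pools of liver and at 27.0% and 24.8% in adipose tissue (Wald test of binomial read counts, adjusted p = 2.45e-18). Its liver difference of 2.67 points had an adjusted p of 8.64e-09 in Fisher's exact test. So small a difference reaches such a p only with far more reads than the control median of 165. Whether the reads of this unit belong to 1 copy was not tested. Klf13, a Krüppel-like transcription factor, stood at 37.8% and 54.8% in liver and at 66.7% and 54.2% in adipose tissue (Wald test of binomial read counts, adjusted p = 0.00329). The 2 pairs with hypothalamus were at Cacng3, a calcium channel subunit gene (55.3% and 70.2% in liver, 49.7% and 34.5% in hypothalamus), and at Gm4166 (51.4% and 60.3% in liver, 74.3% and 54.0% in hypothalamus).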
